A study of Mus musculus with 3 samples.

Results

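The RNAs described here are 9 long noncoding RNAs (lncRNAs) out of 32285 genes in the count matrices: Malat1, Neat1, Miat, Meg3, Rian, Mirg, Rmst, Snhg11 and Gm42702. Snhg11 carries the biotype protein_coding in the annotation used here (GENCODE on GRCm38) and is kept here as a small nucleolar RNA host gene. They were chosen by symbol as abundant noncoding transcripts of these same matrices, so a high total count is how they were selected and is not a result. Rmst, with 5, 6 and 2 UMIs in all kept cells, was not abundant here. Miat was also picked out by the study in these libraries, and Miat and Gm42702 led a small outer hair cell cluster in earlier results from these data. The values of those 2 genes in hair cells, of Miat in SGN-like cells (defined below), and of both between cells poor and rich in ribosomal protein RNA, are therefore given as a description without a test, also where they stand within a count of called lncRNAs. The cells came from cochleae of C57/B6 mice (C57BL/6J in the study's methods, with no engineered allele or treatment), dissociated with collagenase, not sorted, and run as 3 single-cell libraries. A single library was made at postnatal day 14 (P14 replicate 1) and a pair at postnatal day 28 (P28 replicates 1 and 2), each from the pooled ears of 7 mice, so a library is 1 sample and single mice cannot be told apart. Barcodes with 200 to 6000 detected genes and at most 15% mitochondrial transcripts were kept, which left 1662 of 2513, 5651 of 11948 and 7065 of 18196 barcodes. A transcript was counted as a unique molecular identifier (UMI), and levels are given as CPM, the UMIs of a gene scaled to 1000000 UMIs of the cells in question.

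Depth over all kept cells was similar between libraries, though not within each cell class. The median was 2477 UMIs per cell in the P14 library, and 2421 and 2037 in replicates 1 and 2 of P28. The libraries shared 4 to 10 kept barcodes in pairs. Xist, the lncRNA of the inactive X chromosome, had 2952 UMIs at P14 but 6 and 8 UMIs in the P28 libraries, and the Y-linked Ddx3y had 24.2, 98.3 and 113 CPM in the order P14, P28 replicate 1 and P28 replicate 2. These counts, in genes chosen after the values were seen, place cells of both sexes at P14 and few or no female cells at P28, so age and sex cannot be told apart. Gm42418, which overlaps a ribosomal RNA repeat, had 4302 CPM at P14 against 592 and 653 CPM at P28. The share of UMIs from ribosomal protein genes had a median per cell of 8.15% at P14, 14.6% and 16.2% at P28. The part of these in the differences between ages was not tested, and with 1 library at P14 no test of age was possible. Intervals beside single-library levels are 95% Poisson intervals and cover counting error only.

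Most of these RNAs stay in the nucleus. Malat1 collects at nuclear speckles, where splicing factors are stored, and Neat1 is the scaffold of paraspeckles, bodies that retain RNA and RNA-binding proteins. Miat forms nuclear domains of its own in neurons. Meg3, Rian and Mirg are the maternally expressed noncoding transcripts of the imprinted Dlk1-Dio3 region, whose protein-coding genes Dlk1, Rtl1 and Dio3 are expressed from the paternal chromosome. Rmst is a neural lncRNA that binds the transcription factor SOX2. Snhg11 hosts small nucleolar RNAs in its introns. Gm42702 is an annotated intronic transcript without a known role.

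The assay primes at stretches of A, in the poly(A) tail or within a transcript, and the longest run of A in 4 of the annotated transcripts (GENCODE models on GRCm38) is shown because it bears on where a nuclear RNA can be captured. In the sequences below the run is in capitals with 20 bases on each side where the transcript has them. Malat1 (chr19:5795690-5802672, minus strand) has its run 298 bases from the 3′ end, Rian (chr12:109603940-109661716, plus strand) has its run farther inside, Gm42702 (chr3:104135785-104140001, minus strand) has one 260 bases from its end, and Miat (chr5:112213228-112229395, minus strand) has no run longer than 4.
Malat1: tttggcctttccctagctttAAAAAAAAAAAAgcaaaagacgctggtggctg
Rian: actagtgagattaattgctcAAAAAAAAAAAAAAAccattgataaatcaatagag
Gm42702: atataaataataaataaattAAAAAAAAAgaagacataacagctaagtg
Miat: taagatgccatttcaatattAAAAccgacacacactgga
A run of at least 12 A occurs in 5.60% of the 55450 genes of the annotation and in 12.1% of the 19565 genes with a transcript of 2000 bases or more. The match is a description of the sequence, and priming inside the transcripts was not tested.

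Malat1 was higher in the P14 library than in both P28 libraries in hair cells and, of the 9 classes found in all 3 libraries, in 7. Cells were clustered with the 9 genes left out, and clusters were named by markers: outer hair cell-like (OHC-like, 276, 364 and 283 cells), inner hair cell-like (IHC-like, 60, 113 and 76 cells) and, at P28 only, spiral ganglion neuron-like (SGN-like, 334 and 296 cells). In OHC-like cells Malat1 stood at 56956 CPM at P14, while the P28 replicates had 11218 and 13518 CPM. In IHC-like cells the levels were 42377, 8963 and 8993 CPM. The P14 value lay above both P28 values by more than the gap between the P28 libraries in both hair cell types, by 2.20 on the log2 scale in OHC-like and 2.24 in IHC-like cells. Depth differed in IHC-like cells, with a median of 1025.5 UMIs per cell at P14 and 9310 and 8007.5 at P28. At P28 an IHC-like cluster of 37 cells (median 1029 UMIs) had 3.798% Malat1. The IHC-like cluster of 152 cells (median 9801 UMIs) had 0.811%, and IHC-like cells at P14 had 4.24%. The part of depth in the IHC-like difference between ages was not tested. In all non-hair cells the Malat1 levels were 46785, 21303 and 25099 CPM, a log2 difference of 1.01. These held SGN-like cells at P28 only. Without them Malat1 made 4.68%, 2.39% and 2.80% of the non-hair UMIs. Schwann or satellite glia-like cells, with 30 cells at P14, went the other way with 30226, 44114 and 45058 CPM. Inner sulcus, Hensen or outer sulcus-like epithelium had 31066 CPM at P14 and a mean of 21547 CPM at P28, and the values in Deiters or pillar cell-like cells were 31283 CPM and 31370 CPM. Red blood cell-like cells, which should hold no nucleus when mature, still had 12242, 5402 and 8587 CPM and were the lowest class in every library. At P14 their leading genes included Top2a, Mki67 and Hist1h1b, genes of dividing cells named after their values were seen, so this class cannot be taken as free of nuclear RNA there. Their difference between ages was 0.81 on the log2 scale and turned to -0.27 once mitochondrial, ribosomal protein and haemoglobin genes and Malat1 were taken out of the totals.

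**Figure D1:**
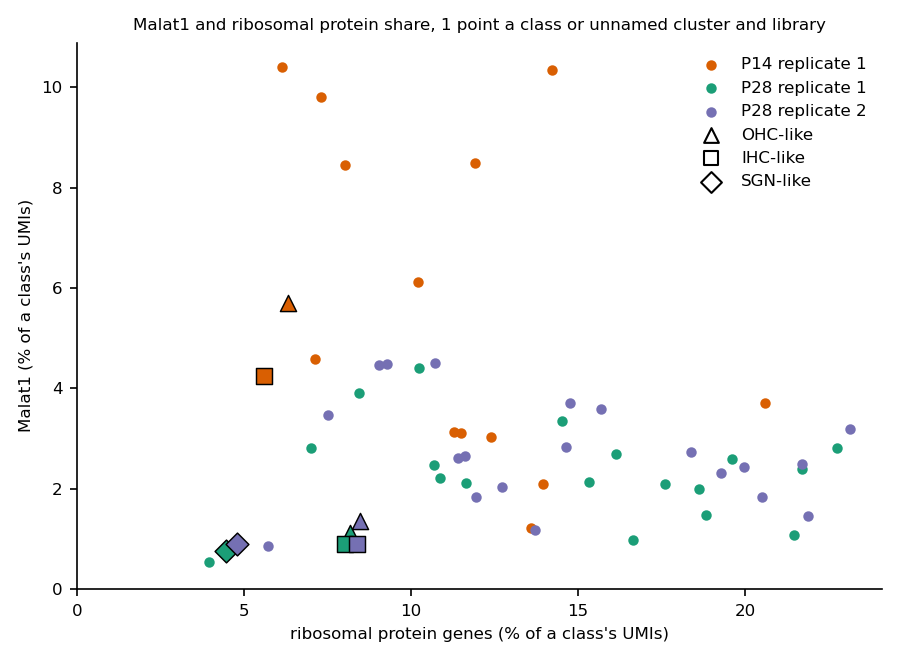
Malat1 as a percentage of the UMIs of a class (vertical) against the percentage from ribosomal protein genes (horizontal), both on linear axes, with a point for each class or unnamed cluster of each library, colours for libraries and outlined symbols for OHC-like, IHC-like and SGN-like cells. In OHC-like cells Malat1 was 5.70% of UMIs at P14 and 1.12% and 1.35% at P28.

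Against non-hair cells of the same libraries, Malat1 was lower in IHC-like cells and was not called in OHC-like cells. The fit across all genes (edgeR's quasi-likelihood test on sums per library, with library as a term and Benjamini-Hochberg adjustment) gave a log2 difference of -1.19 (SE 0.31, adjusted p = 0.0246) for IHC-like cells. The call was lost without either P28 library (adjusted p = 0.753 and 0.795). For OHC-like cells the difference was -0.46 (SE 0.25, adjusted p = 0.192), with P14 higher and both P28 libraries lower than the non-hair cells. Without the P14 library it was -0.77 (adjusted p = 0.000727). OHC-like cells exceeded IHC-like cells in every library, by 0.58 (SE 0.09, adjusted p = 0.000813). That call was lost without either P28 library, at 0.58 and 0.55. SGN-like cells had 7602 and 8942 CPM, against 21782 and 26433 CPM in the other P28 cells. Their log2 difference was -1.60 (SE 0.15, adjusted p = 3.24e-05, 2 sums against 2).

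Neat1 (chr19:5824708-5845478, minus strand, 22035 bases from Malat1) was lower in hair cell-like and SGN-like cells than in the cells they were set against. OHC-like cells had 44.0, 39.9 and 82.5 CPM in the order P14, P28 replicate 1 and P28 replicate 2, which is kept below. IHC-like cells had 99.0, 136 and 156 CPM, above the OHC-like value of each library. Non-hair cells had 176, 228 and 253 CPM. No OHC-like or IHC-like value overlapped the non-hair values, and the fit gave -1.99 (SE 0.22, adjusted p = 0.00522) for OHC-like and -0.97 (SE 0.19, adjusted p = 0.00858) for IHC-like cells. The OHC-like call was lost without P28 replicate 1 (-1.85, adjusted p = 0.0526) and the IHC-like call without either P28 library (adjusted p = 0.251 and 0.242). OHC-like cells were lower than IHC-like cells by 1.17 on the log2 scale (-1.17, SE 0.20, adjusted p = 0.00133), a call that was also lost without either P28 library (adjusted p = 0.385 and 0.107). SGN-like cells had the lowest level of all classes at P28, 16.1 and 21.0 CPM, a 14.4-fold lower level than the other cells (log2 -3.85, SE 0.17, adjusted p = 5.11e-07). Red blood cell-like cells had 27.0, 85.6 and 92.3 CPM, so the Neat1 level of OHC-like cells was not above that of red blood cell-like cells beyond counting error in any library.

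Reissner membrane-like, Schwann or satellite glia-like and intermediate-like cells and 3 unnamed classes held the most Neat1 at P28. Reissner membrane-like cells had 865, 641 and 694 CPM, intermediate-like cells, found in P28 replicate 2 alone, had 1058 CPM, and the P28 class led by Fxyd2 and Kcnk2 had 1187 and 1058 CPM. The class led by Ceacam16 and Tcap had 836 and 703 CPM, the class led by Rnase1 and Lrp2 had 720 and 586 CPM, and Schwann or satellite glia-like cells had 687 and 599 CPM. The P28 ranges of Reissner membrane-like cells, the class led by Rnase1 and Lrp2 and Schwann or satellite glia-like cells overlapped, so no order among those is drawn. In Schwann or satellite glia-like cells at P14 no Neat1 UMI was counted among 88333 UMIs, which allows up to 34.0 CPM.

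**Figure D2:**
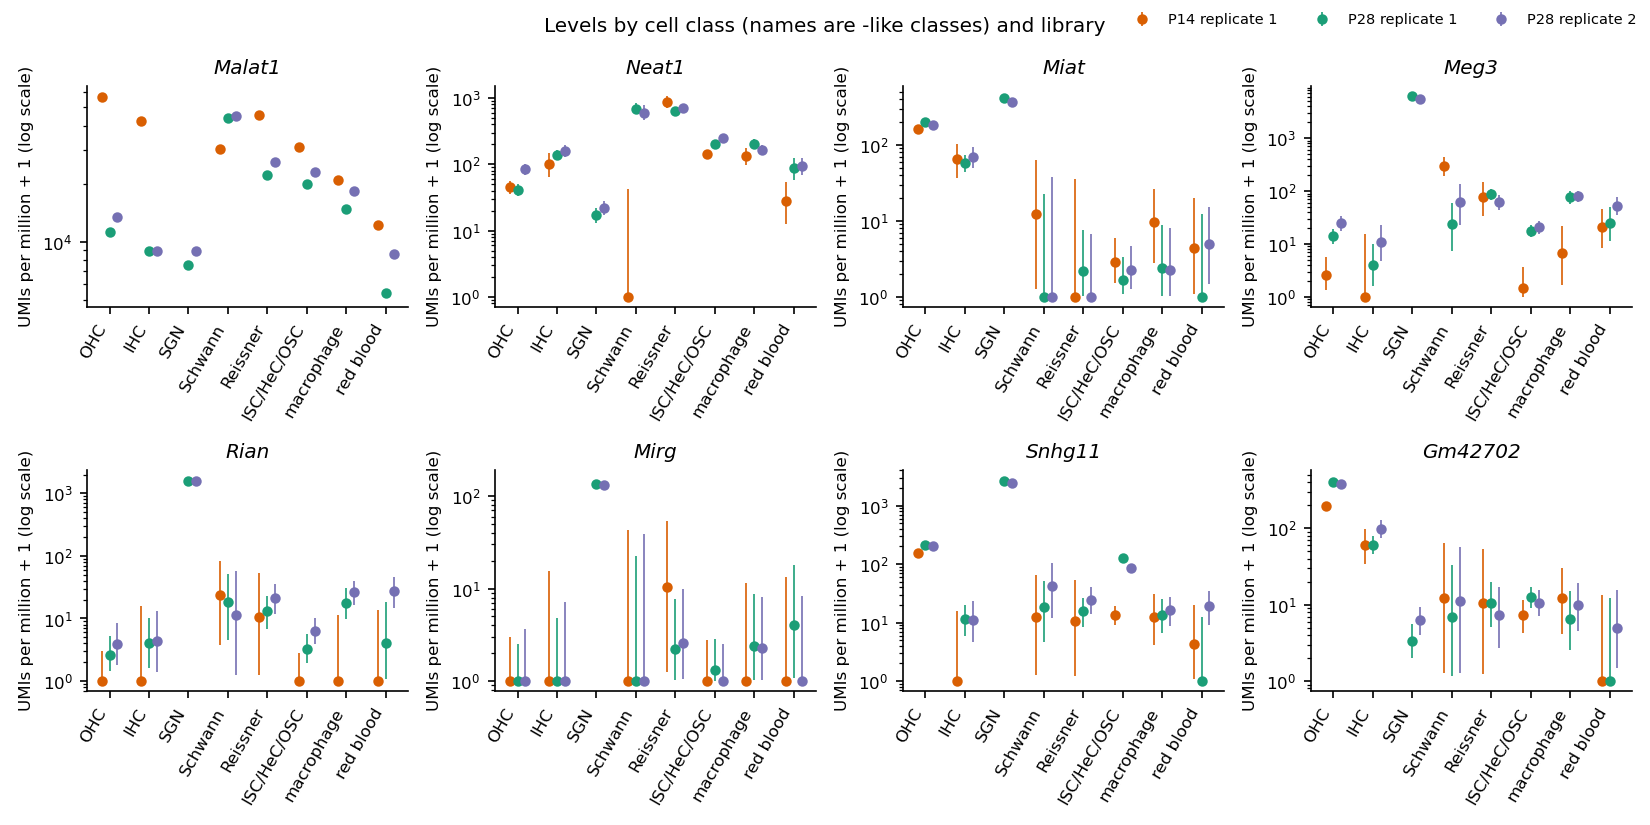
Level of 8 lncRNAs (CPM plus 1, log axis) in 8 named cell classes, with a point for each library and bars for 95% Poisson intervals. SGN-like cells have no point at P14. Miat and Snhg11 are seen in both OHC-like and SGN-like cells, Meg3, Rian and Mirg in SGN-like cells and Gm42702 in hair cells.

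Miat was detected in hair cell-like and SGN-like cells, with a low level in the remaining cells. The level in OHC-like cells was 159 CPM (142 to 178) in the P14 library, and 198 and 183 CPM in the P28 libraries, and the P14 interval reached that of P28 replicate 2. IHC-like cells had 63.4, 56.8 and 69.0 CPM, below the OHC-like value in each library. SGN-like cells had 417 and 366 CPM. The remaining cells had 2.82, 1.35 and 1.77 CPM. A Miat UMI was seen in 59.8%, 67.6% and 54.4% of OHC-like cells and in 65.6% and 86.1% of SGN-like cells, against 2.00%, 0% and 1.07% of red blood cell-like cells, where 0 of 81 cells allows a share of up to 3.70%. Median UMIs per cell were 6485, 5244 and 3751 in OHC-like cells and 4982, 3699 and 2595 in red blood cell-like cells. Thinned to 1000 UMIs per cell, the shares became 12.7%, 20.2% and 18.0% in OHC-like and 30.7% and 26.2% in SGN-like cells. In SGN-like cells the log2 difference from the other P28 cells was 4.13 (SE 0.22), a 17.5-fold higher level, given without a test because the study picked Miat on these neurons and hair cells.

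The non-hair cells held SGN-like cells at P28 but not at P14, so the comparison of hair cells was also read with SGN-like cells left out. OHC-like Miat was 2.73 higher on the log2 scale than in all non-hair cells (SE 0.92) and 6.48 higher when the SGN-like cells were left out, a setting that called 24.1% of genes higher and 37.8% lower. For IHC-like cells the values were 0.60 (SE 0.74) and 4.82. OHC-like cells exceeded IHC-like cells by 1.70 (SE 0.17), a 3.24-fold difference.

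Meg3, Rian and Mirg stood highest in SGN-like cells and were nearly missing from hair cells. Most of their UMIs at P28 lay in SGN-like cells, for Meg3 21028 of 22497 and 17744 of 19314, and the lncRNAs were chosen for abundance, so for these 3 and for Snhg11 the comparison with the other cells is a description without a test. Meg3 (chr12:109541001-109571726, plus strand) had 6145 CPM (6062 to 6228) and 5478 CPM (5397 to 5559) in the SGN-like cells of the P28 libraries and 69.4 and 78.3 CPM in the other P28 cells, a 75.6-fold difference (log2 6.24, SE 0.15). Rian had 1589 and 1556 CPM in SGN-like cells against 15.6 and 21.4 CPM, an 81.5-fold difference. Mirg had 135 and 130 CPM against 2.03 and 1.74 CPM, a 67.1-fold difference. In each case both SGN-like values lay far above both values of the other cells, and in the fit 8 of the 9 lncRNAs were past the threshold, 5 higher, which are Miat and the 4 above, and 3 lower. That comparison called 34.9% of the 15195 genes tested higher and 41.6% lower. A Meg3 UMI was seen in 85.6% and 93.9% of SGN-like cells and in 4.94% and 9.09% of red blood cell-like cells of the P28 libraries, at medians of 9116 and 12657 UMIs against 3699 and 2595.

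The upstream window of a Meg3 entry (RefSeq, GRCm38.p6, chr12:109540746-109541045, plus strand, 250 bases before to 50 after the start) is shown because Meg3 is the first transcript of the 3. The capitals mark TGACGTCA, the letters of the cyclic AMP response element motif, and a stretch that holds TATAAA on both strands. Both motifs were searched on both strands. Counted from the start, TGACGTCA begins at -57 and TATAAA at -29 and -25, the latter 2 overlapping.
Meg3 promoter: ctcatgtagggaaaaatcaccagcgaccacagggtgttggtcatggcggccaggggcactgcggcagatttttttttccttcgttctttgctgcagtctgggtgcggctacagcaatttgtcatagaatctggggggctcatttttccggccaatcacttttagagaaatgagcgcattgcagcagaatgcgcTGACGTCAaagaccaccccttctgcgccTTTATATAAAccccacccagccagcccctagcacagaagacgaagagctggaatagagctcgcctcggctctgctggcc
TGACGTCA is present in 1.79% of the 32851 promoter windows of this length and TATAAA in 13.6%. Promoter entries were matched for 6 of the 9 lncRNAs. Mirg (chr12:109729764-109749460, plus strand) is a host of microRNAs, with 14 hairpins and 26 mature sequences in RefSeq, against 3 hairpins in Rian and 1 in Meg3. Their mature products are not measured by this assay. Of 25 seeds (bases 2 to 8, in capitals) a single one is shared by 2 mature sequences, which are shown for that reason.
miR-453: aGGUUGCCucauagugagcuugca
miR-496a-5p: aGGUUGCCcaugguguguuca

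In hair cells Meg3 was lower than in red blood cell-like cells of the same library, though not always beyond counting error, and Rian and Mirg had few UMIs. For Meg3, OHC-like cells held 1.61, 13.0 and 23.9 CPM, IHC-like cells held 0, 3.10 and 10.1 CPM and red blood cell-like cells held 20.3, 24.5 and 52.1 CPM. Every hair cell value lay below the red blood cell-like value of its library. The counting intervals overlapped for IHC-like cells at P14 (0 to 14.6 CPM against 7.43 to 44.1 CPM). They also overlapped for OHC-like cells in P28 replicate 1 (8.91 to 18.4 CPM in OHC-like cells). Rian had 0, 1.63 and 2.90 CPM in OHC-like cells. Mirg had no UMI in OHC-like or IHC-like cells of any library, which allows up to 1.61, 1.22 and 2.17 CPM in OHC-like cells. Meg3 and Rian had enough UMIs to be tested only through the non-hair cells, where SGN-like cells held most of their P28 UMIs. Their comparison with non-hair cells is therefore also a description without a test. Against non-hair cells Meg3 was 51.7-fold lower in OHC-like cells (log2 -5.69, SE 0.30) and Rian 118-fold lower (log2 -6.88, SE 0.31). In IHC-like cells Meg3 differed by -7.61 (SE 0.46) and Rian by -6.59 (SE 0.34). With SGN-like cells left out the differences shrank to -3.00 and -3.82 in OHC-like and to -4.38 and -3.12 in IHC-like cells. In counts of called lncRNAs, the OHC-like calls of Meg3 and Rian were lost without P28 replicate 1. The IHC-like call of Rian was lost without either P28 library.

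Outside the SGN-like cells, the Meg3 level was highest in a few unnamed classes, in pericyte-like cells and, at P14, in Schwann or satellite glia-like cells (294 CPM, 192 to 431). That Schwann or satellite glia-like value rested on 26 UMIs in 3 of 30 cells, so it may not stand for the class. At P14 the class led by Apod and Dcn had 511 CPM and the class led by Apod and Hba-a1 842 CPM. At P28 the class led by Ccl11 and Dcn had 352 and 307 CPM, the class led by Ly6a and Ccl11 had 431 and 415 CPM and pericyte-like cells had 283 and 193 CPM. All of these levels lay below the SGN-like level. Over the P28 libraries, Rian UMIs were 27.0% of Meg3 UMIs in SGN-like cells, 25.3% in the class led by Ccl11 and Dcn, 25.8% in pericyte-like cells and 24.4% in the class led by Ly6a and Ccl11. Snhg11 UMIs, in contrast, were 43.6% of Meg3 UMIs in SGN-like cells and 9.30%, 16.1% and 4.58% in those 3 classes. Snhg11 per Meg3 in those classes thus lay below that of SGN-like cells, while Rian per Meg3 was near it. At P14, where no SGN-like cells were found, Rian was 18.8% of Meg3 in the class led by Apod and Dcn. It was 9.80% in the class led by Apod and Hba-a1, on 10 Rian UMIs. In the class led by Moxd1 and Col1a2 it was 16.7%, on 7 Rian UMIs. The 3 coding genes of the region, Dlk1, Rtl1 and Dio3, had at most 9 UMIs in any library and were not tested.

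**Figure D3:**
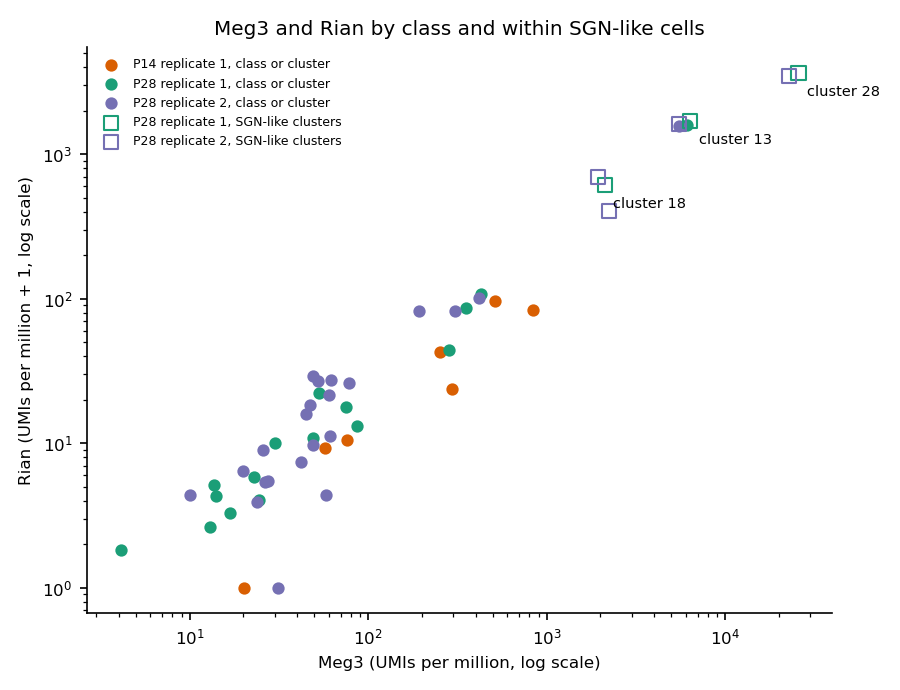
Rian level (CPM plus 1) against Meg3 level (CPM), both on log axes, with a filled point for each class of each library with at least 5 Meg3 UMIs and open squares for the clusters of SGN-like cells. In SGN-like cells Rian made 27.0% of the Meg3 UMIs.

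Over all cells of the 3 libraries Meg3 was 60.3, 915 and 829 CPM, but 60.3, 69.4 and 78.3 CPM once SGN-like cells were left out. In OHC-like cells Meg3 rested on only 3 UMIs in the P14 library, and on 32 and 33 in the P28 libraries.

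SGN-like cells fell in clusters that differed in these RNAs. The cluster of 19 and 23 cells with a median ribosomal share of 2.02% and 2.55% had 25757 and 22852 CPM of Meg3, 12068 and 10232 CPM of Snhg11, 2594 and 2241 CPM of Miat and 63188 and 69063 CPM of Malat1. The largest cluster, of 168 and 215 cells with a median ribosomal share of 3.95% and 4.23%, had 6368 and 5525 CPM of Meg3, 2698 and 2323 CPM of Snhg11 and 5678 and 6931 CPM of Malat1. Another cluster, of 139 and 42 cells, had 2114 and 1930 CPM of Meg3. In the P28 libraries the order of Meg3 levels over these 3 clusters was the same. Meg3 per Rian UMI was 7.0 and 6.6 in the first cluster and 3.8 and 3.4 in the largest. These are descriptions, since clusters were formed on the same cells.

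Snhg11 (chr2:158375638-158386145, plus strand) separated the 2 hair cell types. OHC-like cells had 156, 210 and 202 CPM and IHC-like cells 0, 10.3 and 10.1 CPM, and the ranges did not overlap. In the IHC-like cells at P14 the 0 count allows up to 11.9 CPM. The log2 difference was 4.65 (SE 0.28), a 25.2-fold higher level in OHC-like cells. In counts of called lncRNAs it stayed called without any 1 library. IHC-like cells held only 0, 10 and 6 Snhg11 UMIs, so Snhg11 had enough UMIs to be tested only through OHC-like cells. The comparison is therefore a description without a test, and the size of the difference rests on those few UMIs. A Snhg11 UMI was present in 57.2%, 60.7% and 56.9% of OHC-like cells and in 2.00%, 0% and 3.21% of red blood cell-like cells. Thinned to 1000 UMIs, the OHC-like shares were 17.0%, 20.2% and 21.2% and the IHC-like shares 0%, 3.03% and 1.39%.

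Between OHC-like and IHC-like cells 6 of the 9 lncRNAs were tested and 6 passed, with Neat1 lower in OHC-like cells and the other 5 higher, against 16.7% of 9492 genes called higher and 17.2% called lower. Without TMM scaling the split went from 1586 and 1635 genes to 1234 and 2028. Meg3 differed by 1.74 (SE 0.48), but both of its levels were below that of red blood cell-like cells, not always beyond counting error. It had 77 UMIs over both sides, few of them in IHC-like cells, so it had enough to be tested only through OHC-like cells. In these counts Meg3 and Snhg11 therefore stand as descriptions, as do Miat and Gm42702. Without either P28 library 1 lncRNA, Snhg11, stayed called.

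Snhg11 was highest in SGN-like cells, at 2675 and 2396 CPM against 72.8 and 51.4 CPM in the other P28 cells, a 39.3-fold difference (log2 5.30, SE 0.19). At P28 it was also detected in the class led by Lockd and Pcdh17 with 290 and 280 CPM and in inner sulcus, Hensen or outer sulcus-like cells with 124 and 83.3 CPM, where P14 had 12.5 CPM. The unnamed P14 class led by Epyc and Prss36, with Lockd and Pcdh17 also among its leading genes, had 110 CPM (86.3 to 137). The classes were named separately at each age, so the value of 12.5 CPM does not stand for all epithelium of this kind at P14. Against all non-hair cells the OHC-like Snhg11 level differed by 0.06 (SE 0.87, adjusted p = 0.963). With SGN-like cells left out the difference was 2.10 (adjusted p = 0.000885). With SGN-like cells kept and the P14 library left out it was -0.95. That value is a description without a test, since SGN-like cells held most Snhg11 UMIs of those non-hair cells. In IHC-like cells the difference was -5.67 (SE 0.30) with the SGN-like cells and -2.77 without them. The setting without them called 17.5% of genes higher and 28% lower. That IHC-like comparison is a description without a test, since SGN-like cells held most Snhg11 UMIs of the non-hair cells at P28.

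In the comparison of OHC-like with non-hair cells 7 of the 9 lncRNAs were tested, Gm42702 was called higher and Neat1, Meg3 and Rian lower, while Mirg and Rmst had too few UMIs. The comparison called 24% of 12995 genes higher and 30.3% lower. In IHC-like cells 7 were tested, Gm42702 was called higher and 5 lower, against 13.3% of 12674 genes called higher and 22.5% lower. In these counts Meg3 and Rian in both hair cell types, and Snhg11 in IHC-like cells, stand as descriptions. Without TMM scaling the split of genes called higher and lower went from 1691 and 2849 to 2174 and 2324.

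Gm42702 lies inside an intron of Magi3 (chr3:104013259-104220374, minus strand), the gene of a membrane scaffold protein, on the same strand and with 0 bases in Magi3 exons, so reads of unspliced Magi3 RNA and of Gm42702 cannot be told apart. Its level was highest in OHC-like cells, with 196 CPM (177 to 218) in the P14 library, 403 CPM (378 to 429) in P28 replicate 1 and 376 CPM (344 to 410) in the other. IHC-like cells had 59.4, 59.8 and 97.5 CPM. Non-hair cells had 9.97, 10.9 and 9.47 CPM and SGN-like cells 2.34 and 5.25 CPM. OHC-like cells exceeded non-hair cells 32.4-fold and IHC-like cells 5.15-fold. The P14 value in OHC-like cells lay below both P28 values by more than the counting intervals and the gap between the P28 libraries.

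The host gene Magi3, which was added after the annotation was seen, was also highest in OHC-like cells, and its P14 level there overlapped that of a P28 library within counting error. Its OHC-like levels were 1186, 1174 and 1001 CPM, and its IHC-like levels 368, 319 and 289 CPM. Gm42702 UMIs were 16.6% of Magi3 UMIs in OHC-like cells at P14 and 34.3% and 37.5% at P28. In IHC-like cells the shares were 16.1%, 18.8% and 33.7%, and in SGN-like cells 4.57% and 11.8%. In the other classes with at least 30 Magi3 UMIs the shares ran from 13.6% to 16.9% at P14, over 4 classes, and from 26.1% to 44.3% at P28, over 6 classes in each library. Of those classes only inner sulcus, Hensen or outer sulcus-like cells were in all 3 libraries, with 16.9%, 44.3% and 32.9%. Library, sex and age cannot be told apart.

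**Figure D4:**
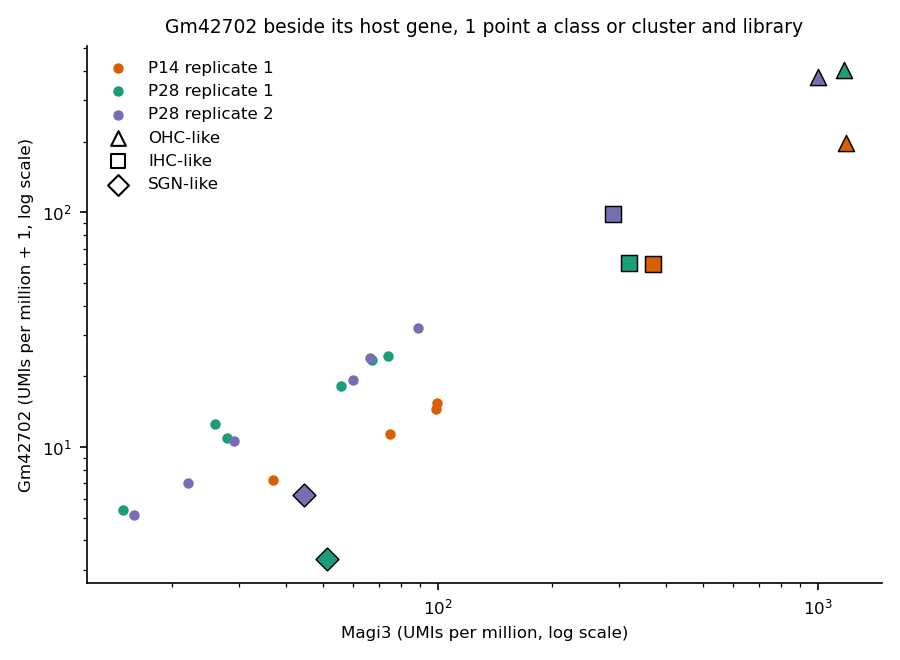
Gm42702 level (CPM plus 1) against the level of its host gene Magi3 (CPM), both on log axes, with a point for each class of each library that had at least 30 Magi3 UMIs and outlined symbols for OHC-like, IHC-like and SGN-like cells. As a percentage of Magi3 UMIs, the other classes shown lie between 13.6% and 16.9% at P14 and between 26.1% and 44.3% at P28.

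Rmst (chr10:92071037-92165170, minus strand) had 5, 6 and 2 UMIs in all kept cells and was tested nowhere. It was not detectable in hair cells at this depth.

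Over all classes together, Neat1 was higher in cells poor in ribosomal protein transcripts, but within single classes it went both ways. Within each class or unnamed cluster of each library, cells were split in terciles, 3 parts of equal cell number, by their ribosomal protein share. The terciles were summed over classes, ribosomal protein UMIs were taken out of the totals, and the low tercile was set against the high tercile. Each class thus gave equal cell numbers to both sides. Over all classes Neat1 had 292, 329 and 421 CPM in the low tercile against 86.0, 162 and 167 CPM in the high tercile, a log2 difference of 1.39 (SE 0.18, adjusted p = 0.0334). Gm42702 had 98.1, 83.2 and 51.4 CPM against 49.9, 47.7 and 31.9 CPM, a difference of 0.84 (SE 0.13). Every low tercile exceeded its own high tercile for both genes. The terciles held different cells, with the neutrophil genes Ngp (12.5), Retnlg (10.2), S100a9 (8.52), S100a8 (8.11) and Camp (6.36) as the largest log2 rises among called genes and Mpo (-6.81), Prtn3 (-3.80), Ccr2 (-3.42), H2-Aa (-2.97) and Plac8 (-2.90), mostly of myeloid cells, as the largest falls. This comparison called 0.916% of 14195 genes higher and 0.951% lower.

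Within classes, the Neat1 level of the low tercile divided by that of the high tercile was 0.284 and 0.386 in SGN-like cells at P28, 2.63, 0.693 and 0.726 in OHC-like cells, 0.847 and 1.23 in IHC-like cells at P28 and 1.55 and 3.61 in Schwann or satellite glia-like cells at P28. Of these 9 ratios 4 were above 1. Of the other lncRNAs tested, Meg3 differed by 1.62 (adjusted p = 0.0520), Rian by 1.53 (adjusted p = 0.0568), Snhg11 by 1.27 (adjusted p = 0.0779), Mirg by 1.31 (adjusted p = 0.100) and Malat1 by 0.47 (adjusted p = 0.229), and none passed. Miat differed by 1.07. SGN-like cells had a median ribosomal share of 4.50% and 4.41%, below the median of all cells, and entered both sides in equal number. With them left out, Neat1 (1.57) and Snhg11 (1.01) were called, Meg3 (0.49, adjusted p = 0.198) and Mirg (-0.02) were not, and Miat and Gm42702 differed by 0.67 and 1.03. That setting called 3.18% of 13542 genes higher and 2.4% lower. No lncRNA was called by edgeR without P28 replicate 1 or without P28 replicate 2, where 1 and 3 of them had an unadjusted p under 0.05.

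Within OHC-like cells alone, Snhg11 had 295, 339 and 296 CPM in the low tercile and 116, 133 and 165 CPM in the high tercile (log2 1.20, SE 0.17, adjusted p = 0.000366). Gm42702 had 404, 548 and 497 CPM against 144, 341 and 325 CPM (log2 0.91, SE 0.18). Both were higher in the low tercile of all 3 libraries, and the Snhg11 call was lost without either P28 library (adjusted p = 0.999 and 1.00). Magi3 differed by 0.59 (adjusted p = 0.0210). Miat differed by 0.55, Malat1 by 0.31 (adjusted p = 0.173) and Neat1 by 0.04 (adjusted p = 0.974). The background was 1.29% of 7435 genes called higher and 2.85% called lower.

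**Figure D5:**
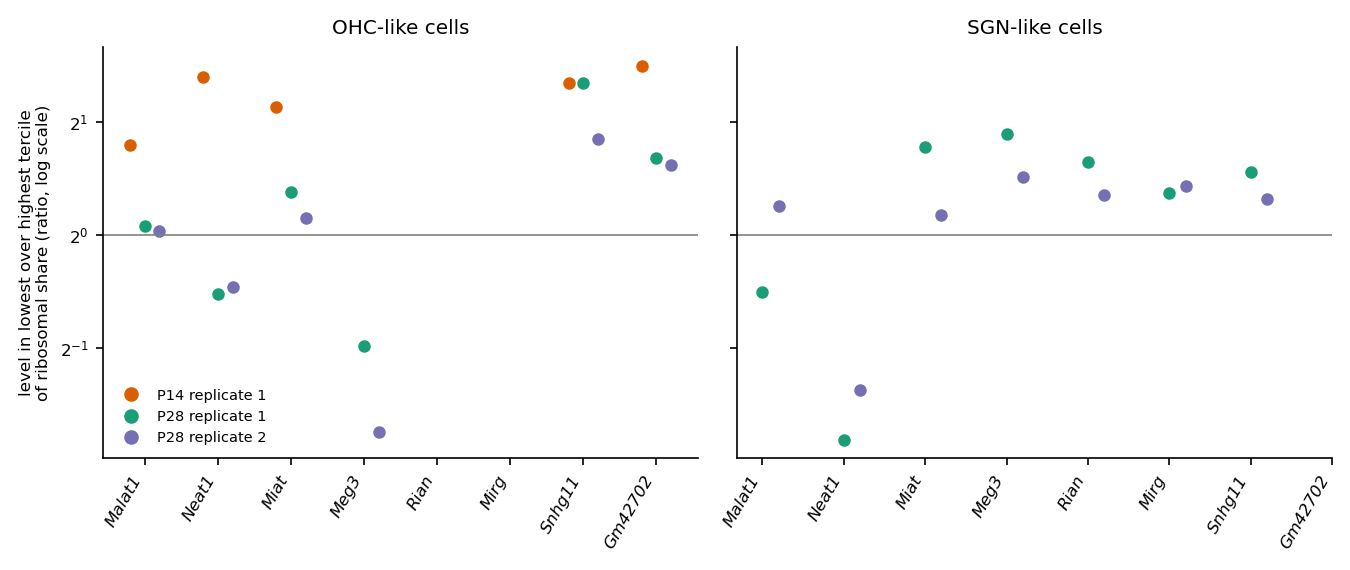
Ratio of the level in the tercile of cells with the least ribosomal protein share to that in the tercile with the most, for each lncRNA and library (points) in OHC-like and SGN-like cells, on a log axis with a line at 1. Miat and Snhg11 had ratios above 1 in both classes and in every library shown, and Gm42702 in OHC-like cells.

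Cells with under 5% ribosomal protein and over 5% Malat1 UMIs were also looked at alone. At P14 they were 332 of 1662 cells, against 2.21% and 1.22% of cells at P28. Among OHC-like cells at P14 they were 88 of 276 (31.9%). Those 88 cells had 310 CPM of Snhg11, 266 CPM of Miat and 381 CPM of Gm42702, against 121, 136 and 155 CPM in the other 188. No OHC-like cell was of this kind in either P28 library, among 364 and 283 cells. Without cells under 5% ribosomal protein, Malat1 in OHC-like cells was still 2.04 higher at P14 on the log2 scale, against 2.20 with them. Cells under 5% ribosomal protein and over 5% Malat1 were also 14 and 16 of the SGN-like cells at P28, with 25909 and 18587 CPM of Meg3 against 5961 and 5332 CPM in the others.

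Genes for proteins of nuclear speckles and paraspeckles were called in both directions. In OHC-like against non-hair cells 3 of 14 tested were called higher and 2 lower, beside 24% and 30.3% of all genes tested, with a median log2 difference of 0.27 against -0.09 over all genes tested. Among the 4 with most UMIs, the speckle genes Son (0.35, adjusted p = 0.170) and Srrm2 (0.32, adjusted p = 0.0657) and the RNA-binding Hnrnpk (-0.03, adjusted p = 0.904) were not called. In IHC-like cells 2 of 14 were called, both lower, beside 22.5% of all genes. In SGN-like cells 5 of 15 were called higher and 4 lower, beside 34.9% and 41.6% of all genes, with Son at -0.89 (adjusted p = 0.000138) and Hnrnpk at 0.31 (adjusted p = 0.0212). Between OHC-like and IHC-like cells none of 13 was called by edgeR or by DESeq2, with 2 at an unadjusted p under 0.05 in edgeR. Between the ribosomal terciles of all classes none of 14 was called by either tool, with 3 at an unadjusted p under 0.05 in edgeR, and within OHC-like cells 1 of 13 was higher, Srsf1 (0.62, adjusted p = 0.0453), a splicing factor named after its value was seen.

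Of the other nuclear or imprinted lncRNAs, 7 of 14 tested were called higher and 4 lower in SGN-like cells, beside 34.9% and 41.6% of all genes, with a median log2 difference of 0.16, against -0.16 over all genes tested. Of the 4 with most UMIs, Oip5os1 was 3.35 higher (adjusted p = 1.01e-07) and Kcnq1ot1, the imprinted antisense RNA of Kcnq1, 0.32 higher (adjusted p = 0.0161), while Pantr1 differed by -4.71 (adjusted p = 1.79e-07) and Tug1 by -0.65 (adjusted p = 0.00108). Snhg14, of the imprinted Prader-Willi region, and Mir124a-1hg, host of the neuronal microRNA miR-124, were named after their values were seen, at 5.42 and 9.12 higher. In OHC-like cells 1 of 11 was higher than in non-hair cells (24% of all genes), Kcnq1ot1 (0.93, adjusted p = 0.00713), and 3 were lower (30.3% of all genes), with Pantr1 at -2.91 (adjusted p = 0.0110). Kcnq1ot1 (1.15, adjusted p = 0.000402) and Pantr1 (1.42, adjusted p = 0.00146) were the 2 of 8 called higher in OHC-like than in IHC-like cells, beside 16.7% of all genes. In IHC-like cells 3 of 12 were called against non-hair cells, all lower.

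The snoRNA host lncRNAs, spliced RNAs that reach the cytoplasm, were mostly lower where called. In SGN-like cells 8 of 13 were called, all lower, beside 41.6% of all genes called lower, with Gas5 at -0.59 (adjusted p = 0.00172) and Snhg18 at -3.71 (adjusted p = 4.02e-07). In OHC-like cells 8 of 13 were lower and 1 higher than in non-hair cells, beside 30.3% and 24% of all genes, with Gas5 at -1.25 (adjusted p = 0.00391) and Snhg8 at -0.95 (adjusted p = 0.00832), and in IHC-like cells 9 of 13 were lower, beside 22.5% of all genes. Between OHC-like and IHC-like cells 1 of 10 was called, higher in OHC-like cells. In the low tercile of ribosomal share over all classes 6 of 13 were called, all lower, beside 0.951% of all genes called lower, with Gas5 at -1.004 (adjusted p = 0.0442), Snhg8 at -0.84 (adjusted p = 0.0467) and Snhg18 at -0.99 (adjusted p = 0.0499) and a median of -0.72. Genes that overlap ribosomal RNA were called lower for 3 of 4 in SGN-like cells, for 3 of 4 in IHC-like cells and for 1 of 4 in OHC-like cells, beside the same shares of all genes called lower. Between the ribosomal terciles of all classes edgeR called 0 of 4 (2 at an unadjusted p under 0.05) and DESeq2 1.

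The genes whose levels followed the lncRNAs most closely were read over 35 class and library sums and 10076 genes, as Pearson's r of log levels, a description in which sums of 1 library share depth and preparation. Among the genes closest to Miat were Kcnj11 (0.96) and Fam155a (0.96). Meg3 was closest to Rian (0.94) and Spock3 (0.91), and Rian to Spock3 (0.95) and the neurofilament gene Nefh (0.94). Mirg was closest to Diras1 (0.97), Snhg11 to Lrrc30 (0.88), Gm42702 to the stereocilia motor gene Myo15 (0.93), Neat1 to the epithelial cadherin gene Cdh1 (0.81) and Malat1 to Prpf4b (0.76). The closest values for Malat1 and Neat1 were the lowest among the lncRNAs with more than trace counts. Between members, Meg3 and Rian had 0.94, Rian and Mirg 0.92, Miat and Snhg11 0.69 and Malat1 and Neat1 0.40.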

How the data were processed

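Single-cell 3′ RNA-seq libraries (10x Genomics v3.1 kit) were made from dissociated mouse cochleae, 1 at P14 and 2 at P28. The authors deposited raw gene by barcode UMI counts, not normalized, aligned to mm10. The matrix headers name Cell Ranger 5.0.1 and the submitters' processing notes name Cell Ranger 6.0.1. The 9 lncRNAs and all gene lists were chosen with earlier results of these data known.

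Kept barcodes were clustered in Seurat 5.3.0 with the lncRNAs, the gene lists and ribosomal protein genes left out of the variable genes. Doublets were scored with scanpy 1.11.5, which marked 3, 0 and 1 cells and so did not work as a caller, and the highest 5% of scores were left out as an alternative. The libraries held 10125255, 35485894 and 37530956 UMIs, of which kept cells held 7432047, 24596587 and 23300859.

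Counts were summed by class and library and tested with edgeR 4.0.16 (R 4.3.3) by the quasi-likelihood test, with library as a term where 3 libraries entered, Benjamini-Hochberg adjustment over all genes tested and a threshold of 0.05. SGN-like cells were tested as 2 sums against 2, without that term. Where library was a term, the p-values measure how the difference between the 2 sides varied between libraries, including between ages. In the SGN-like comparison they measure the spread between the sums of a side. The pairing of sums within a library was not used there. Named genes were the 9 lncRNAs, the 3 genes with the most similar levels to each, at most 4 members of a list per comparison with the most UMIs, and the 5 largest called rises and falls between ribosomal terciles. Exceptions are said where they stand. A count of 0 allows 3 UMIs. Replicate numbers do not pair the groups, so the library was the block. DESeq2 1.42.0, other filters and scalings and leaving out each library were alternatives. A few genes and a sequence covered by these rules are not reported here.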

Additional observations from a re-analysis of the deposited data

Results flagged for a closer look

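In 4 comparisons the P14 library went one way and both P28 libraries the other, and these differences between ages were not tested. Malat1 in OHC-like against non-hair cells had a log2 ratio of 0.28 at P14 and -0.93 and -0.89 at P28. Snhg11 in the same comparison had 2.56 at P14 and -1.19 and -0.98 at P28, where SGN-like cells, which are rich in Snhg11, stood among the non-hair cells. With the SGN-like cells left out, the Snhg11 difference over the 3 libraries was 2.10. Mirg between the low and high terciles of ribosomal share had -1.24 at P14 and 1.86 and 0.93 at P28, and rested on 12 UMIs in all P14 cells. Neat1 between the terciles of OHC-like cells had 1.37 at P14 and -0.52 and -0.46 at P28, on 26 and 24 UMIs in the P14 terciles.

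The barcodes outside the limits on genes and mitochondrial share, 851, 6297 and 11131 of them, entered no comparison. They held more than 3 UMIs for 8 of the 9 lncRNAs at P14, for 8 in P28 replicate 1 and for 8 in P28 replicate 2, with Rmst as the exception. Their Malat1 level was 31968, 16295 and 20167 CPM, lower than in the kept cells of each library.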

How the results depend on the processing

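Counts of lncRNAs called are given against the value reported. OHC-like against non-hair cells (4) had 2 with at least 10 UMIs in every sum and 1 to 8 without 1 library. IHC-like against non-hair cells (6) had 3 with at least 10 UMIs and 2 to 7 without 1 library. OHC-like against IHC-like cells (6) had 1 to 6 without 1 library. SGN-like against other cells (8) had 7 or 8 in every alternative, 8 with the replicate block, and leaving out a library was not run there because no residual degrees of freedom remain. The low against high ribosomal terciles of all classes (2, with 130 genes higher and 135 lower) had 6 with DESeq2 (398 and 243), 7 with no filter on low counts (702 and 451), 7 at most 3000 genes per cell (437 and 407), 5 in cells with at least 1000 UMIs (320 and 221), 4 each with at least 10 UMIs in every sum, without the highest doublet scores, without abundant genes and, chosen after the data were seen, without SGN-like cells, 1 without TMM (37 and 56), 0 with a split at the median (8 and 14) and 0 without the replicate block by edgeR, where 7 and 3 lncRNAs had an unadjusted p under 0.05, and 0 to 6 without 1 library (717 and 577 genes without P14). The terciles of OHC-like cells (2, with 96 and 212 genes) had 0 without the replicate block (3 at an unadjusted p under 0.05), 1 at most 3000 genes and 0 to 2 without 1 library. DESeq2 called 2 there, of 19 genes higher and 59 lower. Genes called there were 155 and 572 with no filter, 24 and 47 with at least 10 UMIs, 5 and 12 at most 3000 genes, 93 and 121 without the highest doublet scores, 197 and 511 without P14, and 0 by edgeR without the block or without either P28 library, where 490, 156 and 206 genes had an unadjusted p under 0.05. Over all genes, the counts called higher and lower also moved by more than 1.5 times elsewhere. OHC-like against non-hair cells (3115 and 3934) had 2221 and 2197 with at least 10 UMIs, 663 and 762 without P28 replicate 1 and 958 and 1890 without P28 replicate 2. IHC-like against non-hair cells (1691 and 2849) had 971 and 884 with at least 10 UMIs, 926 and 2143 at most 3000 genes, 3211 and 4664 without the P14 library and 425 and 475 or 542 and 634 without P28 replicate 1 or 2. OHC-like against IHC-like cells (1586 and 1635) had 882 and 1150 with DESeq2, 807 and 893 with at least 10 UMIs, 783 and 924 without the replicate block, 480 and 442 at most 3000 genes, 2245 and 2447 without P14 and 93 and 147 or 96 and 143 without P28 replicate 1 or 2. SGN-like against other cells (5304 and 6319) had 2285 and 2507 at most 3000 genes and 3527 and 4415 without cells under 5% ribosomal protein. Snhg11 in OHC-like against all non-hair cells, SGN-like cells included, turned to -0.95 without the P14 library. It was -0.28 and -0.47 without P28 replicate 1 and 2. The causes were not tested. Of single lncRNAs in single alternatives, 441 kept their side of the threshold and direction, 45 passed the threshold only in the alternative, 42 lost it, 11 not called in either changed sign and 1 reversed. Of alternative levels 39 moved by less than the spread and 68 by more. Depth limits Mirg and Rmst in hair cells.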
